A study of Drosophila melanogaster with 12 samples.

Results

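Regime differences that kept their direction at both ages were followed here in the male reproductive tracts of Drosophila melanogaster populations that had evolved under polygamy or monogamy. The 48 h and 96 h counts of each population were added, the 3 polygamous sums were set against the 3 monogamous sums, and a gene was kept when its polygamy over monogamy difference had the same sign at 48 h and at 96 h. Of 17559 deposited genes, 13140 had enough counts to be tested both in the sums and at each age. Among these, 8606 kept their sign (65.5%), 4373 of them higher (33.3%) and 4233 lower (32.2%) under polygamy. The 48 h and 96 h libraries of a population shared part of their deviation from the regime means (correlations of 0.390 to 0.570 over genes), so a share of like signs above an even split does not by itself show an effect of regime. A narrower set of 483 genes is described in more depth, in which the 3 polygamous libraries lay entirely above or entirely below the 3 monogamous ones at 48 h and again, on the same side, at 96 h.

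All 6 populations came from 1 base population, the IV population, and had evolved for 168 generations. Polygamous males had been housed in groups of 5 males and 5 females, and monogamous males as single pairs with 1 virgin female. The assayed males of every population were virgins aged 48 or 96 h, and 30 tracts of accessory glands, testes and ejaculatory duct were pooled per library. This gave 12 libraries, 3 for each regime and age, in which 1 pool stood for a population at an age. The replicate of a regime is the population, whatever the number of its libraries, so the test of the sums rests on 3 populations against 3. The single-age tests share 1 fit of all 12 libraries without a population term. Their residual spread therefore treats the 2 libraries of a population as independent.

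Enforced monogamy removes competition between males for mates and between the ejaculates of rival males, whereas polygamy keeps both, and seminal fluid and sperm are the main male contributions to that competition. The accessory gland makes most seminal proteins through a heavily used secretory pathway, the testis holds germ cells at all stages of sperm formation, and muscle sheaths move the contents of the gland and the duct. In pooled tissue, fewer cells of a type and less RNA per cell cannot be told apart.

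Libraries held 31367030 to 40581251 gene counts, and summed populations 69498330 to 78020774, where a floor of 3 counts corresponds to 0.0390 to 0.0429 CPM (read counts divided by TMM library sizes). Main cell, duct and testis markers were present in every library, for example Acp36DE at 2772 to 14666 CPM and betaTub85D at 2478 to 3428 CPM. Monogamous population 1 stood apart. On the leading principal component (26.8% of the variance), its 48 h library scored -68.2 and its 96 h library -26.4, while the other 10 libraries scored -6.01 to 19.9. Ejaculatory bulb markers marked out another pair of libraries. Ebp had 0.733 to 3.17 CPM in the 96 h libraries of polygamy, against 505, 0.866 and 487 CPM in those of monogamous populations 1, 2 and 3. EbpII likewise had 0.462 to 1.82 CPM in polygamous 96 h libraries, against 141, 0.102 and 136 CPM in the monogamous ones. Of the 13140 genes, 90 lay below -2 in log2 change at 96 h and 21 above 2. Only 2 of those 90 were among the 483 genes.

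No gene passed the edgeR test of regime. In the sums, the quasi-likelihood F test of edgeR called 0 of 13512 genes higher (0%) and 0 lower (0%) at an adjusted p under 0.05, while 1285 genes (9.51%) had an unadjusted p under 0.05. Without monogamous population 1 the calls were again 0 higher and 0 lower (0% each) of 13609 genes, with 1161 genes (8.53%) at an unadjusted p under 0.05. At single ages edgeR also called 0 genes in either direction, and 2256 of 13156 genes at 48 h (17.1%) and 439 at 96 h (3.34%) had an unadjusted p under 0.05. Fitting only the libraries of 1 age gave 1015 such genes at 48 h and 635 at 96 h. The smallest adjusted p in the sums was 0.344, shared by PIP5K59B, CG10853 and lncRNA:CR43713. DESeq2, run on the same sums, called 29 genes higher and 45 lower, and with monogamous population 1 left out 59 higher and 66 lower. What follows is therefore a description of direction, size and spread, in which no single gene passed the adjusted edgeR test.

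Most differences that kept their sign were small. The median absolute log2 change in the sums was 0.14 for the 8606 genes of the same sign, against 0.11 for all 13140 tested. For the 483 genes whose libraries did not overlap at either age (3.68%) it was 0.22. These split into 236 higher (1.8%) and 247 lower (1.88%) under polygamy. Without monogamous population 1 the same criterion, now on fewer libraries, held for 1283 genes (9.76%). Taken 1 age at a time, the regimes did not overlap for 2930 genes at 48 h (22.3%) and for 1420 genes at 96 h (10.8%). Of the 483 genes, 411 differed by 1.5-fold or less and 35 by more than 2-fold (7.25%, 21 higher and 14 lower). Among all 13140 tested, 242 differed by more than 2-fold (1.84%). The median level, in CPM and not per length, was 18.9 CPM for the higher genes, 69.8 CPM for the lower genes and 15.1 CPM for all tested. The limit of the set is arbitrary at its margin. Rab6, a Golgi traffic GTPase, lay just inside it with a log2 change of 0.19 in the sums, and Edem1, which acts in the disposal of misfolded secretory proteins, just outside it with 0.23.

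**Figure D1:**
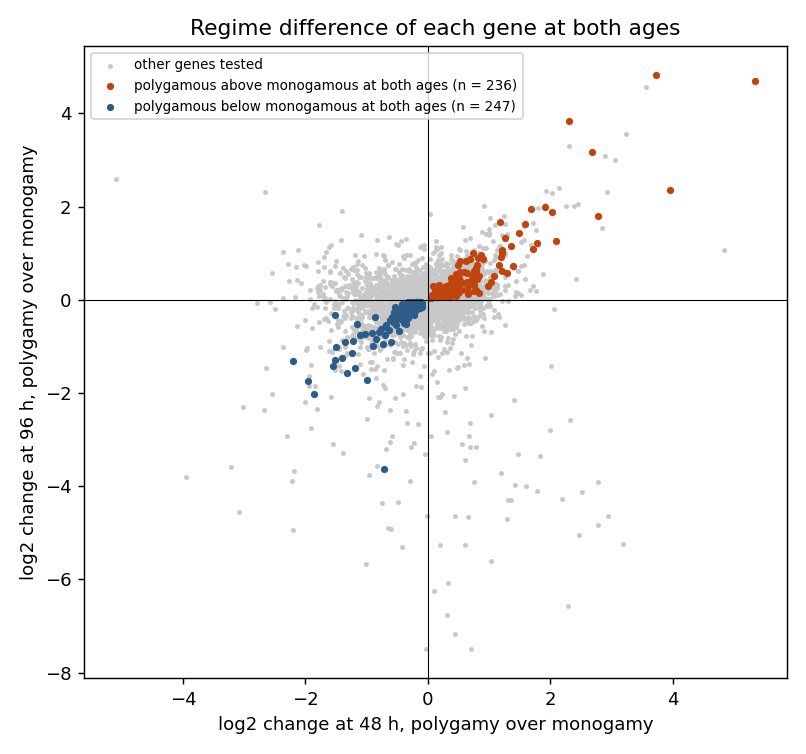
Log2 change of each tested gene, polygamy over monogamy, at 48 h (x axis) and at 96 h (y axis); each point is 1 gene from the edgeR fit. The 236 orange genes had polygamous libraries above all monogamous ones at both ages and the 247 blue genes below them; grey points far below 0 at 96 h include Ebp and EbpII, the bulb markers high in 2 monogamous libraries.

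Most regime differences were larger in the younger males, less so without monogamous population 1. The regime difference was larger at 48 h than at 96 h for 408 of the 483 genes (84.5%) and for 9508 of all 13140 tested (72.4%). Without monogamous population 1 it was larger at 48 h for 291 of the 483 genes (60.2%) and for 57.3% of all tested, and the median absolute log2 change of the 483 genes was then 0.18 at 48 h and 0.17 at 96 h. A test of the regime difference between ages, with population as a block, called 0 of 13156 genes by edgeR in either direction (0%), and 681 (5.18%) had an unadjusted p under 0.05.

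Among the genes of the set with at least 5 CPM that stood higher under polygamy, 3 long non-coding RNA genes of chromosome arm 2L had the largest differences. lncRNA:CR44612 (2L, 7142304 to 7145263, BDGP6) had 15.02, 6.78 and 17.8 CPM in the sums of polygamous populations 1, 2 and 3, against 0.129, 0.885 and 0.260 CPM in monogamous populations 1, 2 and 3. Its log2 change was 4.96 ± 0.75 (SE, adjusted p = 0.519 by edgeR), and it was 5.33 at 48 h and 4.70 at 96 h. Its libraries held 217 to 652 counts under polygamy, against 2 to 41 counts under monogamy, without overlap.

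lncRNA:CR46063 (2L, 7567929 to 7568438) showed the same arrangement. Its sums stood at 5.31, 7.33 and 10.8 CPM under polygamy, against 0.472, 0.700 and 0.0520 CPM under monogamy, a log2 change of 4.27 ± 0.77 (SE, adjusted p = 0.519 by edgeR). The difference was 3.72 at 48 h and 4.83 at 96 h, so that this gene, unlike most, stood further apart in older males. Monogamous population 3 held 2 counts at each age.

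lncRNA:CR43713 (2L, 5431842 to 5432604) had the smallest p of the 20 genes named by the rule. It stood at 11.8, 9.43 and 6.04 CPM in polygamous populations 1, 2 and 3, against 1.77, 1.77 and 2.18 CPM in the monogamous ones, with a log2 change of 2.25 ± 0.26 (SE, adjusted p = 0.344 by edgeR). At 48 h the polygamous libraries had 13.3, 11.2 and 7.53 CPM and the monogamous ones 1.12, 1.44 and 2.097 CPM. At 96 h the values were 10.5, 7.79 and 4.64 CPM under polygamy and 2.31, 2.01 and 2.24 CPM under monogamy. The monogamous libraries lay close to one another at 96 h, and polygamous population 1 was above population 3 at both ages. Its log2 change was 2.77 at 48 h and 1.80 at 96 h, and the difference between the ages did not pass the adjusted test (unadjusted p = 0.0031, adjusted p = 0.726 by edgeR).

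The neighbours of lncRNA:CR43713 stood higher under polygamy too. It lies between H15 and lncRNA:CR43714 in 1 of only 2 runs of 3 adjacent tested genes that belonged to the set on 1 side (2L, 5404280 to 5433522). H15 encodes a T-box transcription factor, and its sums were 4.01, 2.42 and 2.00 CPM under polygamy, against 1.21, 1.53 and 1.21 CPM under monogamy (log2 change 1.09 ± 0.28 SE). lncRNA:CR43714 had a log2 change of 0.85 ± 0.22. The nearby T-box gene mid (2L, 5461639 to 5467610), a close relative of H15, was in the set as well at 1.74, 1.47 and 1.30 CPM under polygamy, against 0.672, 0.814 and 0.975 CPM under monogamy. The other run of 3 held lncRNA:CR44203, lncRNA:CR44204 and CG11123 (2R, 7429496 to 7442885), also higher under polygamy. In all, 28 of the 483 genes lay in 13 runs of at least 2 adjacent genes. That number was not tested against random placement of the set along the chromosomes. The runs include CG3502 and CG9863, which overlap and may share reads.

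The protein-coding genes named on this side differed by less than the 3 non-coding ones. HP6 (2L, 4577719 to 4578218), a gene of the HP1 family of chromatin proteins, had sums of 15.6, 13.7 and 14.2 CPM under polygamy, against 9.43, 10.6 and 9.24 CPM under monogamy. Its log2 change of 0.57 ± 0.09 (SE, adjusted p = 0.519 by edgeR) was 0.52 at 48 h and 0.60 at 96 h. Every polygamous library lay above every monogamous one at both ages, and without monogamous population 1 the change was 0.54.

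FIG4 (2L, 4465174 to 4468022), a phosphoinositide phosphatase of endosomes and lysosomes, had 19.3, 16.6 and 17.0 CPM under polygamy, against 9.25, 12.7 and 11.2 CPM under monogamy (log2 change 0.68 ± 0.13 SE). Population 1 was the lowest of the monogamous sums, and without it the change was 0.56. The gene overlaps ine on the other strand, and since the strand setting of the counting is unknown here, reads of ine may be included.

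CG7091 (3R, 12978000 to 12980535) had 14.7, 15.8 and 17.8 CPM under polygamy, against 9.38, 7.85 and 11.6 CPM under monogamy (log2 change 0.74 ± 0.15 SE). It was 1.08 at 48 h and 0.51 at 96 h, where the lowest polygamous library lay just above the highest monogamous one, which had 14.0 CPM. CG11123 (2R, 7440706 to 7442885), which overlaps sPLA2 on the same strand, stood at 20.6, 18.9 and 18.8 CPM under polygamy, against 13.1, 9.65 and 13.9 CPM under monogamy.

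CG43111, a short protein-coding gene, had 1 library far below the rest. Its sums were 155, 174 and 155 CPM under polygamy, against 99.3, 126 and 119 CPM under monogamy, and the 48 h library of monogamous population 1 held only 45.2 CPM where the other monogamous libraries of that age held 118 and 121 CPM. Its log2 change was 0.49 ± 0.10 (SE), 0.40 without that population and 0.32 without its 48 h library alone. Here and below, dropping that library leaves population 1 with 96 h counts only, beside sums of both ages, so the ages are unbalanced. The remaining 2 of the 10 genes named on this side differed by less. l(3)L1231 had 46.1, 44.7 and 45.7 CPM under polygamy, against 37.5, 37.7 and 39.9 CPM under monogamy (log2 change 0.25 ± 0.05 SE, and 0.16 without the 48 h library of monogamous population 1). Its log2 change was 0.40 at 48 h and 0.14 at 96 h. In the older males the regimes nearly met, with 45.1 CPM in polygamous population 3 and 44.8 CPM in monogamous population 1. A gene listed only as FBgn0259234 had 84.8, 78.9 and 84.9 CPM under polygamy, against 68.5, 69.3 and 66.8 CPM under monogamy.

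**Figure D2:**
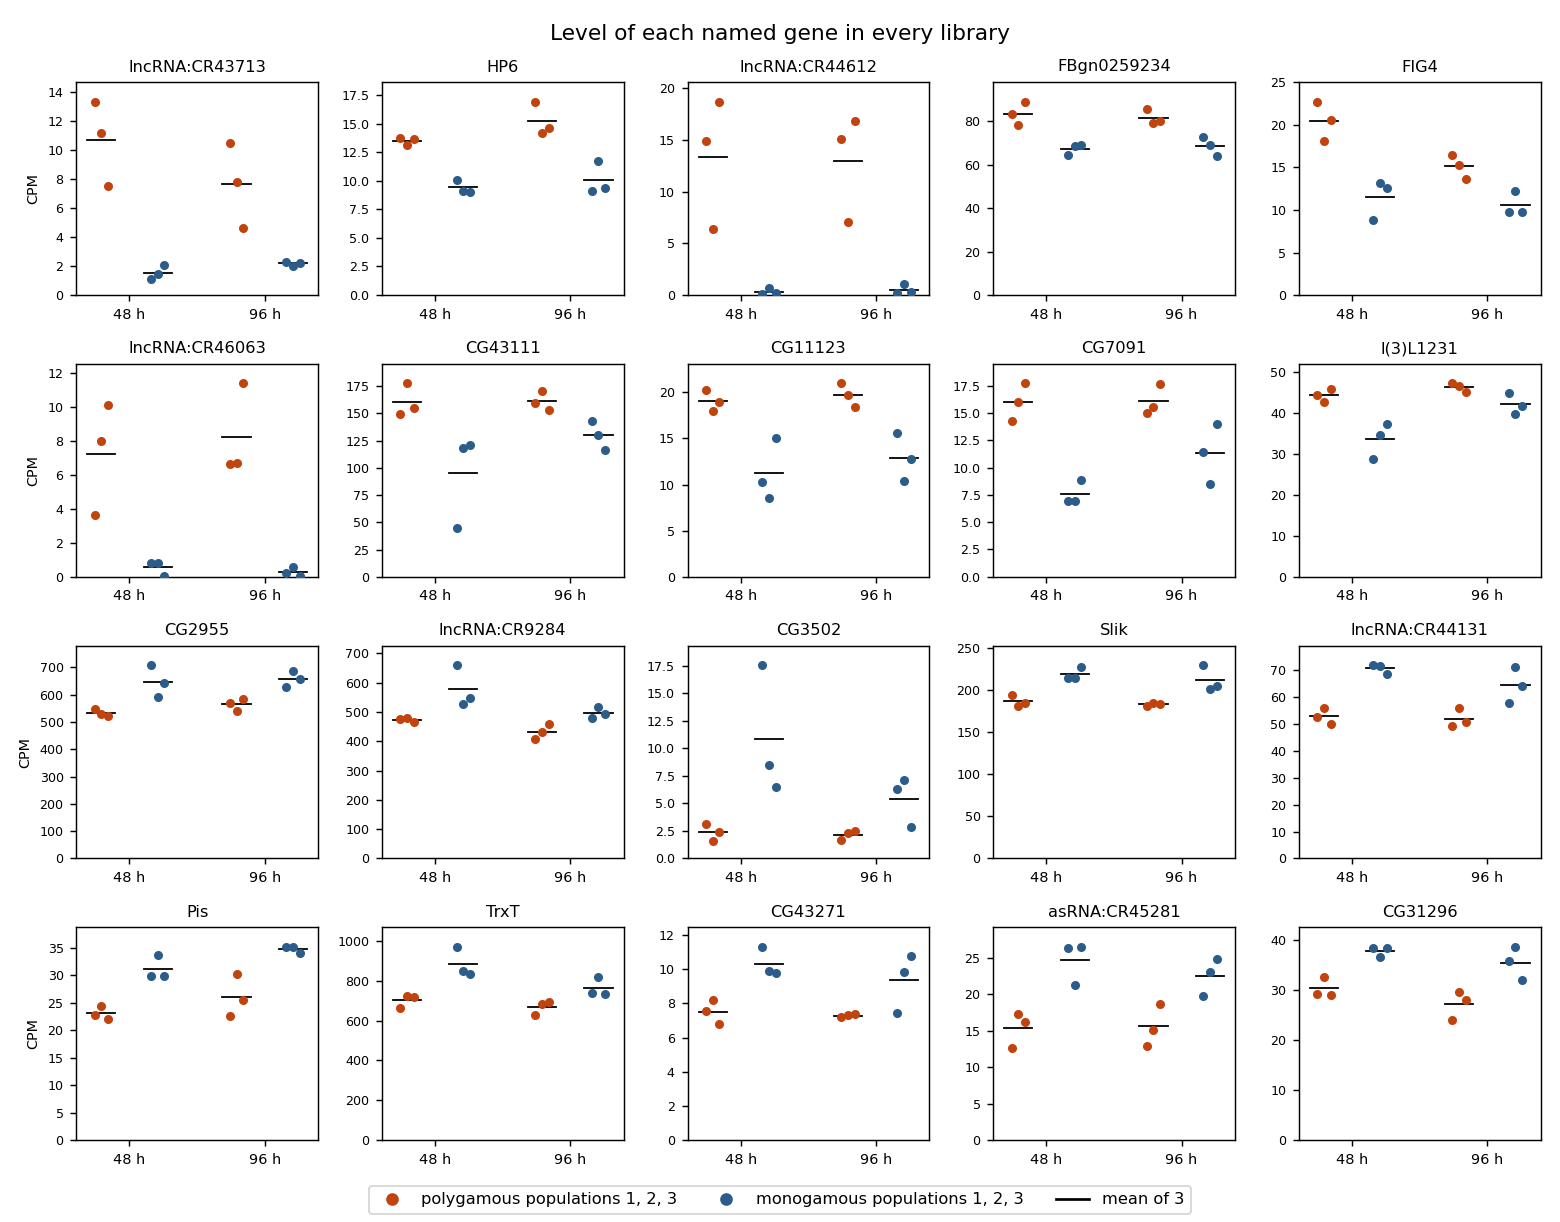
CPM of the 20 named genes in every library (y axis, from 0), with polygamous populations in orange left of monogamous ones in blue at 48 h and at 96 h, points ordered by population 1, 2, 3 and bars at the mean of 3. The upper 10 genes stood higher under polygamy and the lower 10 lower, with lncRNA:CR44612 and lncRNA:CR46063 near 0 in all monogamous libraries.

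Among the genes that stood lower under polygamy, CG3502 (2R, 23343405 to 23347641) differed most of the 10 named. Its sums were 2.35, 1.97 and 2.44 CPM under polygamy, against 11.1, 7.77 and 4.59 CPM under monogamy, a log2 change of -1.79 ± 0.32 (SE, adjusted p = 0.519 by edgeR). The 48 h library of monogamous population 1 was the highest, at 17.5 CPM. At 96 h the regimes nearly met, with 2.47 CPM in polygamous population 3 and 2.85 CPM in monogamous population 3. Without monogamous population 1 the change was -1.45. CG3502 overlaps CG9863 on the other strand, which was itself in the set with a log2 change of -0.12, so their counts may not be separate.

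TrxT (X, 5310581 to 5311888), which encodes a thioredoxin made in the testis, had 645, 704 and 707 CPM in polygamous populations 1, 2 and 3, against 832, 837 and 785 CPM in the monogamous ones, a log2 change of -0.26 ± 0.05 (SE). It was -0.33 at 48 h and -0.19 at 96 h. At 96 h the highest polygamous library, at 691 CPM, lay close under the lowest monogamous one, at 735 CPM.

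Pis (X, 15701451 to 15703770) encodes phosphatidylinositol synthase, which makes the parent lipid of the phosphoinositides. Its sums were 22.7, 27.5 and 24.0 CPM under polygamy, against 32.5, 34.8 and 32.2 CPM under monogamy (log2 change -0.42 ± 0.08 SE). The difference was nearly the same at both ages, -0.43 at 48 h and -0.41 at 96 h, and -0.44 without monogamous population 1.

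Slik (2R, 24392129 to 24402680), a Ste20-family kinase that activates moesin, had 187, 183 and 185 CPM under polygamy, against 221, 208 and 216 CPM under monogamy. Its log2 change of -0.22 ± 0.04 (SE) was -0.23 at 48 h and -0.21 at 96 h. The polygamous populations were close to one another and all below the monogamous ones. CG2955 (2L, 4149279 to 4151203) had 561, 537 and 558 CPM in polygamous sums, against 656, 649 and 653 CPM in monogamous ones (log2 change -0.24 ± 0.04 SE).

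The 3 non-coding genes named on this side differed by less than those that stood higher. lncRNA:CR9284 had 439, 454 and 465 CPM under polygamy, against 553, 527 and 520 CPM under monogamy (log2 change -0.24 ± 0.04 SE). lncRNA:CR44131 had 50.7, 55.9 and 50.7 CPM, against 63.2, 71.9 and 66.4 CPM under monogamy (-0.36 ± 0.07 SE). asRNA:CR45281, which runs antisense to Or45b and Alp6 and whose reads cannot be told apart from theirs without strand, had 12.8, 16.2 and 17.6 CPM, against 22.4, 22.4 and 25.7 CPM under monogamy (-0.60 ± 0.13 SE). The other 2 named genes were CG43271, at 7.36, 7.74 and 7.13 CPM under polygamy and 9.03, 9.94 and 10.3 CPM under monogamy, and CG31296, at 26.5, 31.1 and 28.7 CPM under polygamy and 36.6, 38.0 and 35.2 CPM under monogamy. For CG43271 the regimes nearly met at 96 h, with 7.37 CPM in polygamous population 3 and 7.42 CPM in monogamous population 1. These 20 genes were picked by their separation and their p in the sums, so neither is independent support. With size factors taken from spermatocyte and spermatid genes the log2 change was -0.16 for TrxT, -0.12 for Slik, -0.15 for CG2955 and -0.14 for lncRNA:CR9284.

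Of the genes in the set with at least 5 CPM, 398 of 9143 (4.35%), 11 differed by more than 2-fold, 5 higher and 6 lower. All 5 higher genes were non-coding. Beside the 3 of arm 2L these were lncRNA:CR44232 and lncRNA:CR43358. lncRNA:CR43358 had 85.2, 125 and 118 CPM under polygamy, against 57.5, 37.4 and 65.4 CPM under monogamy. Of the 6 lower genes, 5 were protein-coding. Lpin, the phosphatidate phosphatase lipin of fat synthesis, had 45.6, 95.9 and 77.0 CPM under polygamy, against 144, 235 and 135 CPM under monogamy (log2 change -1.24 ± 0.34 SE), and overlaps kermit on the same strand. phr, a DNA photolyase gene that overlaps Prosalpha1 on the other strand, had 3.72, 5.93 and 5.41 CPM under polygamy, against 8.32, 13.3 and 9.02 CPM under monogamy. CG31157 and CG7966, adjacent on 3R, were both lower at log2 changes of -1.47 and -1.14, and the non-coding lncRNA:CR44955 at -1.32. The genes of this paragraph other than the named ones were chosen after their values were seen.

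PIP5K59B, a phosphatidylinositol phosphate kinase gene below the 5 CPM limit, had the smallest p of all. It had 1.07, 0.978 and 0.917 CPM under polygamy, against 2.37, 2.67 and 3.16 CPM under monogamy, a log2 change of -1.47 ± 0.17 (SE, adjusted p = 0.344 by edgeR). CG10853 had 0.664, 1.11 and 0.835 CPM under polygamy, against 0.143, 0.0857 and 0.0650 CPM under monogamy, which is 3.13 in log2 change near the detection floor. Both were chosen after their values were seen.

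The share of genes in the set differed by chromosome arm, and that difference was not tested. The set took in 125 of 2588 tested genes on 2L (4.83%), 112 of 2539 on 2R (4.41%), 83 of 2549 on 3L (3.26%), 106 of 3157 on 3R (3.36%) and 50 of 1952 on the X (2.56%). On the X, 32 were higher and 18 lower. None of the 25 tested Y genes or of the 14 tested mitochondrial genes was in it. By gene type it held 62 of 1416 non-coding RNA genes (4.38%, 22 higher and 40 lower) and 413 of 11407 protein-coding genes (3.62%, 211 higher and 202 lower).

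Of the 20 named genes, 6 lay within 1 stretch of 2L (4149279 to 7568438), namely CG2955, FIG4, HP6, lncRNA:CR43713, lncRNA:CR44612 and lncRNA:CR46063. In that stretch 36 of 435 tested genes were in the set (8.28%, 24 higher and 12 lower), against 89 of 2153 on the rest of 2L (4.13%). In windows of 1 Mb with at least 50 tested genes, the median share was 3.29% over 112 windows. The highest shares were 10.6% (12 of 113 genes, 2L from 4000001 to 5000000), 10.3% (12 of 117, 2L from 19000001 to 20000000) and 10.1% (14 of 138, 2L from 5000001 to 6000000). The stretch was drawn after the positions were seen, and neighbouring genes are not independent.

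Gene lists were next read for direction, each by its count of members and its median. Members quoted without being in the set are examples picked outside the naming rule with values known. They need not be typical of their list. Of 32 tested genes of the secretory pathway, which folds and ships proteins from the endoplasmic reticulum, 26 were higher and 1 lower at both ages, against 65.5% of all genes keeping either sign. None passed the test. Their median log2 change was 0.18 in the sums, 0.28 at 48 h and 0.07 at 96 h, against 0.01 for all genes in the sums, and it was 0.08 in the sums without monogamous population 1. The set held 3 members of the list (9.38%, against 3.68% of all genes). These were ERp60 and Gp93, which fold proteins in the endoplasmic reticulum, and Sec61alpha, the channel through which proteins enter it. Gp93 had 796, 790 and 769 CPM under polygamy, against 477, 708 and 733 CPM under monogamy (log2 change 0.30 ± 0.16 SE), so monogamous population 1 lay far below the other populations, and the change was 0.12 without it. Sec31, a coat protein of vesicles that leave the endoplasmic reticulum, had 0.24 ± 0.06 (SE), and 0.28 without that population. As a share of all gene counts, the list took 0.849% to 0.900% in polygamous libraries at 48 h, against 0.493% to 0.815% in monogamous ones. At 96 h it took 0.748% to 0.827% under polygamy, against 0.724% to 0.736% under monogamy, so the shares of the regimes did not overlap at either age.

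Seminal fluid proteins, the products of that pathway in the gland, did not keep 1 direction. Of 80 tested, 24 were higher and 4 lower at both ages, so 35% kept their sign against 65.5% of all genes, and none was in the set of 483. Their median log2 change was 0.47 at 48 h and -0.04 at 96 h, and 0.23 in the sums against 0.05 without monogamous population 1 and 0.42 without monogamous population 3. Their share of counts was 6.96% to 7.05% under polygamy at 48 h, against 2.85% to 6.85% under monogamy, and 4.45% to 4.90% under polygamy at 96 h, against 4.23% to 5.46% under monogamy. The low end under monogamy at 48 h was population 1, and the regimes overlapped at 96 h.

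A panel of 7 single genes, most of them seminal, was read next. SP, the sex peptide that lowers female receptivity, had a log2 change of 0.24 ± 0.19 (SE) in the sums, and 0.07 without monogamous population 1. Acp26Aa, an ovulation-stimulating protein, had 0.62 at 48 h and -0.12 at 96 h, and Acp36DE, needed for sperm storage, 0.64 at 48 h and 0.02 at 96 h. lectin-46Ca, a member of the sex peptide network made in secondary cells, had 423, 415 and 365 CPM at 48 h under polygamy, against 36.7, 260 and 334 CPM under monogamy. At 96 h its values were 398, 387 and 352 CPM under polygamy and 383, 308 and 410 CPM under monogamy, so the regimes overlapped in older males. In the sums, Dup99B, a duct peptide related to SP, had -0.11 ± 0.18 (SE), Abd-B, the Hox gene of secondary cells, 0.05 ± 0.14 (SE), and Est-6, the duct esterase, 0.17 ± 0.25 (SE). Est-6 overlaps thoc6 on the other strand. None of the 7 passed the test, nor was any in the set. Of 12 sex peptide network genes 5 were higher and 0 lower at both ages, and of 12 secondary cell genes 6 and 0, with Rab6 in the set. Of 10 duct and bulb genes 3 were higher and 1 lower. The shares keeping either sign were 41.7%, 50% and 40% in these lists, below the 65.5% of all genes.

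Ribosomal protein genes leaned towards polygamy. Of 83 tested, 65 were higher and 4 lower under polygamy at both ages, and none passed the test or was in the set. Either sign was kept by 83.1%, against 65.5% of all genes. The median log2 change was 0.11 in the sums, 0.20 at 48 h, 0.03 at 96 h and 0.13 without monogamous population 1, and it was 0.07 without monogamous population 2. RpL23A had 267, 254 and 261 CPM under polygamy, against 237, 230 and 230 CPM under monogamy (log2 change 0.16 ± 0.04 SE), without overlap in the sums. The list took 1.60% to 1.74% of counts in polygamous libraries at 48 h, against 1.43% to 1.46% in monogamous ones, whereas at 96 h it took 1.73% to 1.80% under polygamy and 1.55% to 1.80% under monogamy, with overlap.

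Muscle genes leaned the same way. Of 19 tested, 15 were higher and 0 lower under polygamy at both ages (78.9%, against 65.5% of all genes keeping either sign). The median log2 change was 0.21 in the sums, 0.17 without monogamous population 1 and 0.13 without its 48 h library alone. Prm, the paramyosin of thick filaments, was the only member in the set (5.26% of the list, against 3.68% of all genes). It had 94.6, 91.9 and 96.7 CPM under polygamy, against 62.9, 79.7 and 84.1 CPM under monogamy. Mhc, the muscle myosin heavy chain, had a log2 change of 0.29 ± 0.10 (SE) and Tm2, a tropomyosin, 0.26 ± 0.07 (SE). The list took 0.238% to 0.265% of counts at 48 h under polygamy, against 0.176% to 0.233% under monogamy. At 96 h it took 0.232% to 0.242% under polygamy, against 0.219% to 0.231% under monogamy, so its shares did not overlap at either age. Of the 31 lists, only this one and the secretory pathway showed that at both ages. Their gaps at 96 h were narrow, and the separation of shares was not tested.

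Genes of late sperm formation leaned the other way. Of 36 tested spermatid genes, 0 were higher and 32 lower under polygamy at both ages (88.9%, against 65.5% of all genes keeping either sign). None passed the test or was in the set. The median log2 change was -0.10 in the sums, -0.18 at 48 h, -0.05 at 96 h, -0.07 without monogamous population 1 and -0.053 without its 48 h library alone. Mst87F, a structural protein of the sperm tail, had 830, 944 and 898 CPM under polygamy, against 1149, 981 and 977 CPM under monogamy (log2 change -0.22 ± 0.08 SE). Tpl94D, a transition protein that packs sperm DNA, had 563, 562 and 565 CPM under polygamy, against 614, 609 and 590 CPM under monogamy (-0.10 ± 0.04 SE). The summed share of the list overlapped, at 4.73% to 5.04% under polygamy and 4.86% to 6.23% under monogamy at 48 h, with the 48 h library of monogamous population 1 highest.

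Of 12 tested Y-linked genes, which are transcribed mainly in spermatocytes, 1 was higher and 8 lower under polygamy at both ages. Either sign was thus kept by 75%, near the 65.5% of all genes. The median log2 change was -0.14 in the sums, -0.13 without monogamous population 1 and -0.05 without polygamous population 1. kl-3, a dynein heavy chain of the sperm tail, had 53.9, 56.3 and 56.0 CPM under polygamy, against 59.7, 64.2 and 62.2 CPM under monogamy (log2 change -0.16 ± 0.05 SE). FDY, the member that stood higher, had 10.6, 10.7 and 7.72 CPM under polygamy, against 6.72, 7.78 and 8.53 CPM under monogamy, with overlap. Of 14 tested genes of the mitochondrial genome 2 were higher and 11 lower (92.9% keeping their sign). The median was -0.12, -0.14 without monogamous population 1 and -0.05 without monogamous population 3. Mitochondrial shares of counts overlapped between the regimes at both ages. mt:ND4, a subunit of respiratory complex I, had 346, 394 and 420 CPM under polygamy, against 427, 423 and 509 CPM under monogamy.

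**Figure D3:**
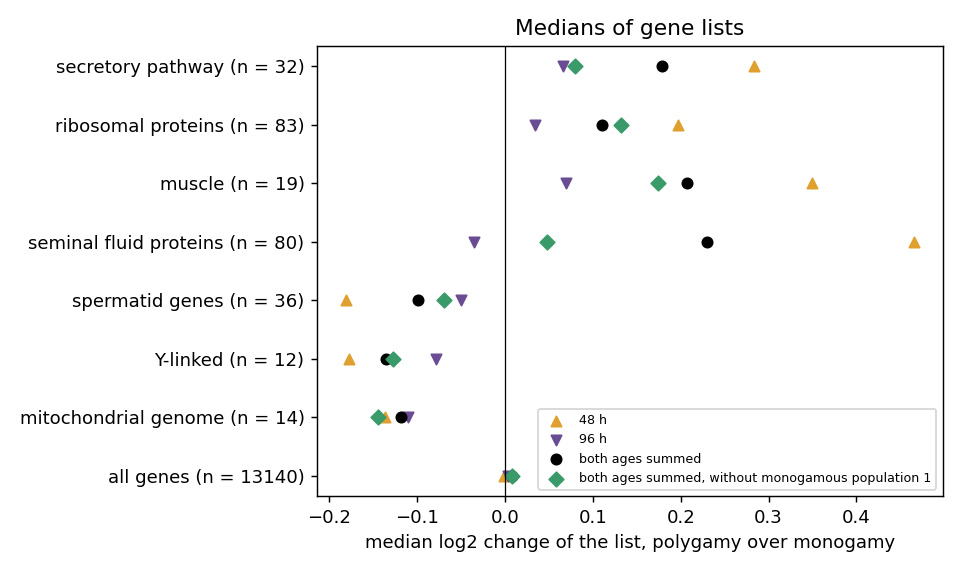
Median log2 change of 7 gene lists and of all tested genes, polygamy over monogamy (x axis), at 48 h, at 96 h, in the population sums, and in the sums without monogamous population 1. Secretory, ribosomal and muscle lists lay above 0 and spermatid, Y-linked and mitochondrial lists below 0 in all 4, whereas seminal fluid proteins lay at 0.47 at 48 h and -0.04 at 96 h.

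**Figure D4:**
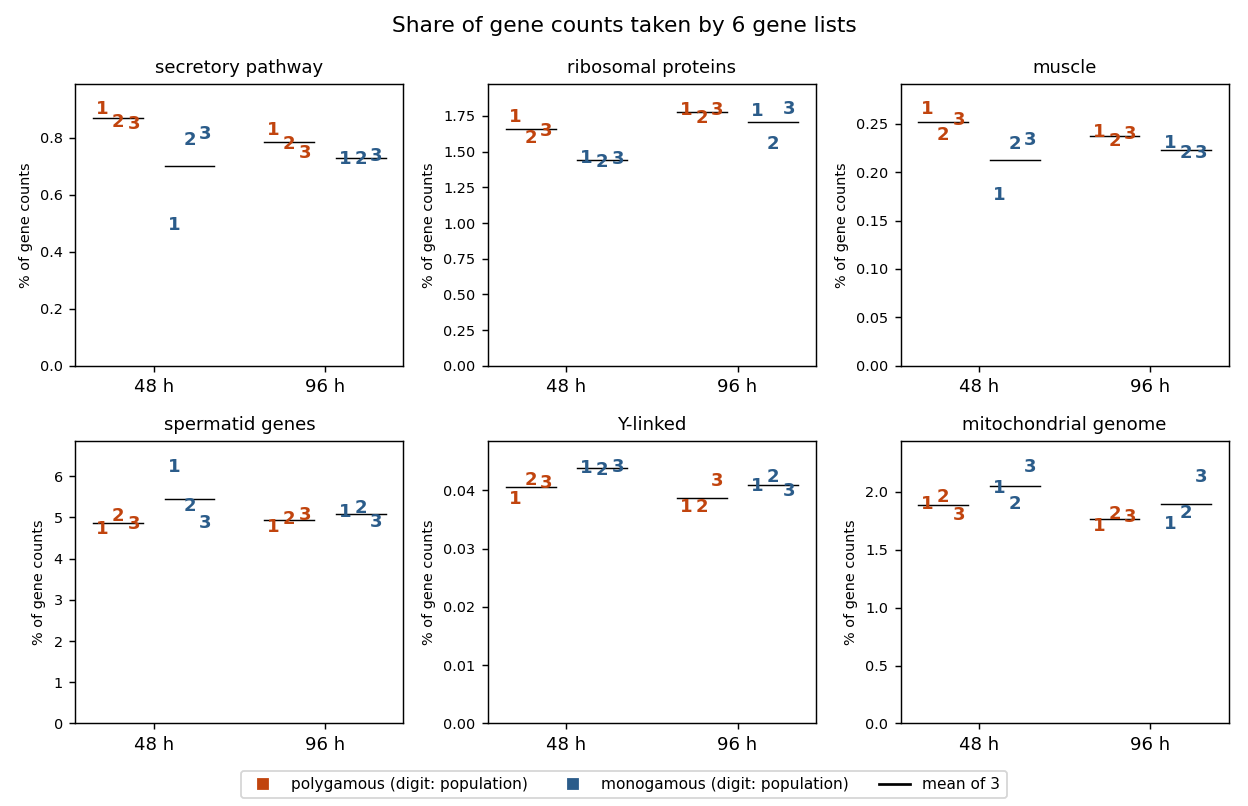
Share of all gene counts taken by 6 lists (y axis, percent, from 0) in each library at 48 h and 96 h; digits give the population, orange for polygamy on the left and blue for monogamy on the right, and bars the mean of 3. Secretory and muscle shares of polygamous libraries lay above the monogamous ones at both ages, and the 48 h library of monogamous population 1 was the lowest for both.

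The size of these small medians depends on how libraries are scaled. With size factors taken from spermatocyte and spermatid genes instead of all genes, the median of all genes moved to 0.10 in log2 change. The spermatid list, whose genes helped to set those factors, was then held at -0.01 by construction. The Y-linked list was at -0.05 and the mitochondrial list at -0.03, while the secretory, ribosomal and muscle lists were at 0.27, 0.20 and 0.30. When each population was left out in turn, the medians stayed on their side of 0, at 0.08 to 0.21 for secretory, 0.07 to 0.13 for ribosomal, 0.16 to 0.24 for muscle, -0.14 to -0.07 for spermatid, -0.17 to -0.05 for Y-linked and -0.17 to -0.05 for mitochondrial genes. The part that the mix of tissues in the pools had in these lists was not tested.

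Other lists held a few members of the set. tim, a core gene of the circadian clock, had 52.0, 44.9 and 47.2 CPM under polygamy, against 30.8, 27.7 and 39.1 CPM under monogamy (log2 change 0.56 ± 0.13 SE, 0.52 without monogamous population 1), and its neighbour CG15414 was in the set with it. The clock list as a whole did not follow tim. Of 8 tested clock genes, 4 were higher and 1 lower at both ages (62.5%, against 65.5% of all genes keeping either sign). Their median log2 change was 0.06 in the sums and -0.06 without monogamous population 1. Of 81 oxidative phosphorylation genes encoded in the nucleus, 32 were higher and 29 lower (75.3%, against 65.5% of all genes keeping either sign). ATPsynGL and COX7AL were in the set on the lower side, which is 2.47% of the list, against 3.68% of all genes. ATPsynGL had 50.0, 45.0 and 54.8 CPM under polygamy, against 66.7, 62.8 and 60.7 CPM under monogamy, and COX7AL 145, 141 and 146 CPM, against 179, 157 and 167 CPM under monogamy. Of 64 tested chemoreceptor genes, 4 were in the set (6.25%, against 3.68% of all genes). Or43b, an odorant receptor, Gr32a, a gustatory receptor, and ppk19, a pickpocket channel, were lower at log2 changes of -0.52, -0.47 and -0.69, and ppk20, another pickpocket channel, was higher at 1.38, with less than 1 CPM in every population.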

How the data were processed

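Stranded total RNA libraries were counted per gene by the authors, who deposited raw read counts. Per the submitters' processing notes, Trimmomatic 0.33, TopHat2 2.1.0, HTSeq 0.6.1 and build BDGP6 were used; the strand setting and annotation release are not given in the sources used here. The 5 summary lines of each table (15.1% to 17.2% of reads) stayed out of library sizes and tests. Symbols and positions came from Ensembl's BDGP6.54 annotation (17253 of 17559 identifiers matched).

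Counts of each population were summed over both ages and tested with edgeR 4.0.16 in R 4.3.3 (TMM, filterByExpr, robust quasi-likelihood F test, Benjamini-Hochberg adjustment over all genes tested, threshold 0.05). Signs and sizes at 48 h and 96 h came from 1 fit over all 12 libraries without a population term. The regime difference between ages came from a fit with population as a block. SE is the absolute log2 change divided by the square root of F. Each sequenced pool is the only library of its population and age. No 2 libraries of a group held identical counts, and their chi-square per degree of freedom was 11.6 to 190. The scripts were tested on simulated data.

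Named genes were, for want of calls, the 10 per direction with the smallest p in the sums among genes of the same sign, with regimes not overlapping at either age and at least 5 CPM in the higher regime, and a panel of 7 seminal and secondary cell genes. Members, the panel and 31 gene lists were chosen with earlier results of these data known. DESeq2 1.42.0, limma 3.58.1, other scalings and filters, and leaving out each population were the alternatives. Promoter, protein and transcript sequences were not analysed here.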

Additional observations from a re-analysis of the deposited data

Results flagged for a closer look

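The regimes did not overlap at either age but lay in opposite directions for 24 of 13140 genes (0.183%), against 483 on the same side. Of the 24, 10 were higher under polygamy at 48 h and lower at 96 h, and 14 the other way round. The difference of the regime effect between ages had an unadjusted p under 0.05 for 18 of them and passed the adjusted test for 0 (edgeR, population as a block). Of the 13 with at least 5 CPM, CG10553 had 43.7, 33.0 and 33.9 CPM at 48 h under polygamy, against 53.7, 43.8 and 44.7 CPM under monogamy. At 96 h it had 32.4, 30.5 and 36.5 CPM under polygamy, against 30.4, 28.0 and 27.3 CPM under monogamy, and the test between ages gave an unadjusted p of 0.0046 and an adjusted p of 0.726 by edgeR. PGRP-LC, a receptor for bacterial peptidoglycan in the immune deficiency pathway, had log2 changes of -0.34 at 48 h and 0.12 at 96 h.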

How the results depend on the processing

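Against 0 calls by edgeR in the population sums, DESeq2 called 29 genes higher and 45 lower, and 59 and 66 without monogamous population 1. Treating the 12 libraries as independent gave 6 higher and 1 lower, and leaving out each population in turn 0 to 1 higher and 0 lower. DESeq2 size factors, testis size factors, no filter, no robust estimation, limma and voom with population as a random block gave 0 calls, with 1175 to 1449 genes at an unadjusted p under 0.05. With the population number as a replicate block, edgeR gave 0 higher and 0 lower and 1024 genes at an unadjusted p under 0.05. The numbers are only names here, and deviations of same-numbered sums correlated at -0.142, 0.203 and 0.0398. Genes whose regimes did not overlap at both ages numbered 809 to 1467 when 1 population was left out, 809 without polygamous population 1, 970 without 2 and 1250 without 3, and 1283 without monogamous population 1, 943 without 2 and 1467 without 3. Fewer libraries can only raise that count. Without the 48 h library of monogamous population 1 (chosen after seeing the data), Dup99B was at a log2 change of 0.25 in the sums. That setting sets 96 h counts of 1 population beside sums of both ages, so a difference with age can enter it. Leaving out each population in turn gave -0.090 to 0.19 for Abd-B and -0.018 to 0.44 for Est-6 in the sums, the lowest value of each without monogamous population 1. Without that population Abd-B was at -0.14 at 48 h, and SP at -2.92e-05, Acp36DE at -0.013 and Abd-B at -0.028 at 96 h. All these changed sign, and the cause was not tested. Of the 20 named genes, DESeq2 called all but CG43271 (adjusted p = 0.0626). The 20 genes had been picked by their separation and their small edgeR p in the same sums. DESeq2 calls among them were therefore likely beforehand and are not independent support.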

Other observations

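Further lists held few or no members of the set. Of 13 tested gut enzyme genes 2 were higher and 6 lower under polygamy at both ages, with a median log2 change of -1.75 in the sums and -1.09 without monogamous population 1. Their share was 0.0041% to 0.0052% of counts under polygamy at 96 h, against 0.0041% to 0.0149% under monogamy, the highest being population 1. Immune effector genes had a median of -0.35 over 23 genes in the sums, and -0.02 without monogamous population 1. Their median was -0.74 at 48 h and 0.06 at 96 h, and only 26.1% kept their sign, against 65.5% of all genes. Serpins had 0.18 over 27 genes in the sums, and -0.02 without that population. The serpin median was 0.33 at 48 h and -0.02 at 96 h, and 66.7% kept their sign. Odorant-binding protein genes had -0.14 over 29 genes, 5 higher and 13 lower at both ages, and -0.09 without that population. GstE11, a glutathione transferase gene, was in the set at 4.08, 3.60 and 3.98 CPM under polygamy, against 3.00, 3.08 and 2.63 CPM under monogamy. Hsc70-1, a heat shock cognate gene, was in it on the lower side at a log2 change of -0.14 ± 0.05 (SE). Piwi-interacting RNA and transposon silencing genes numbered 12 higher and 6 lower of 27, with a median of 0.02, and cell cycle genes 10 higher and 4 lower of 28, with a median of 0.04. Either sign was kept by 61.5% of gut, 62.1% of odorant-binding, 66.7% of transposon silencing and 50% of cell cycle genes. Those shares were near or below the 65.5% of all genes.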
